A study of Glycine max with 12 samples.

Results

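The comparison described here is that of Harosoy defective (HD) with Harosoy standard (HS) soybean seed coats from seeds of 400–500 mg fresh weight, the oldest stage sampled. It rests on 2 of the 12 RNA-Seq libraries of the series, 1 for each isoline, and it takes in every Glyma gene model with at least 5 RPKM (aligned reads scaled to model length and to library size) in either library. These were 23404 of the 78720 models outside a block of 53 on chromosome 13 (Glyma13g11810 to Glyma13g12220), which was left out.

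The series holds seed coats of 4 isolines at 3 seed weights (50–100, 100–200 and 400–500 mg), with 1 library per isoline and stage. HD carries the defective, or net pattern, seed coat mutation in the Harosoy background, where it had been introduced by repeated backcrossing, and HS is the Harosoy line with an intact coat. Both are yellow-seeded (alleles I, r and t), and the coat of HD ruptures as the seed matures. Clark defective (CD) carries the same mutation in the black-seeded Clark background (alleles i, R and T), and Clark standard (CS) is its intact partner. All plants were grown in a greenhouse. Seeds were harvested over some weeks, pooled and sorted by weight, and the coats were dissected from the cotyledons and embryo and freeze-dried. The mutated gene is not named in the sources used here, so the labels could not be checked against a targeted gene, and each isoline is a single line. With 1 library a side there is no replicate error for any value, and every ratio compares these libraries rather than the genotypes. Intervals given with a fold difference are 95% exact (Clopper-Pearson) intervals from the number of alignments behind each value, and they cover counting error only.

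The soybean seed coat begins as a tissue of dividing and elongating cells with thin walls, and later lays down thick walls in its palisade and hourglass layers before it dries. Wall strength draws on cellulose, xyloglucan and pectin, on the enzymes that trim them, and on structural proteins rich in proline or glycine that peroxidases can cross-link. As the seed fills, the coat passes sugars and amino acids to the embryo, and towards maturity it turns on genes for desiccation, storage and defence. Seed coats are bulk tissue, so fewer cells of a type and less RNA per cell cannot be told apart in any value below.

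Of the 23404 models, 1117 were at least 2-fold higher in HD (4.77%) and 1093 were at least 2-fold lower (4.67%), while 21194 lay under 2-fold. With 1 model per locus, 909 of 17408 loci were higher (5.22%) and 905 were lower (5.2%). The counts were close to equal at 2-fold but not further out. At least 3-fold, 607 models were higher and 293 lower. At least 4-fold, 457 were higher and 113 lower, and at least 10-fold, 176 were higher and 10 lower. The median log2 ratio over all models was -0.08. The differences reached into the most abundant transcripts: of the 33 models averaging 1000 RPKM or more, 11 were higher and 5 lower in HD, whereas among the 8574 models averaging 5 to 10 RPKM 4.12% were higher and 3.99% lower.

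**Figure D1:**
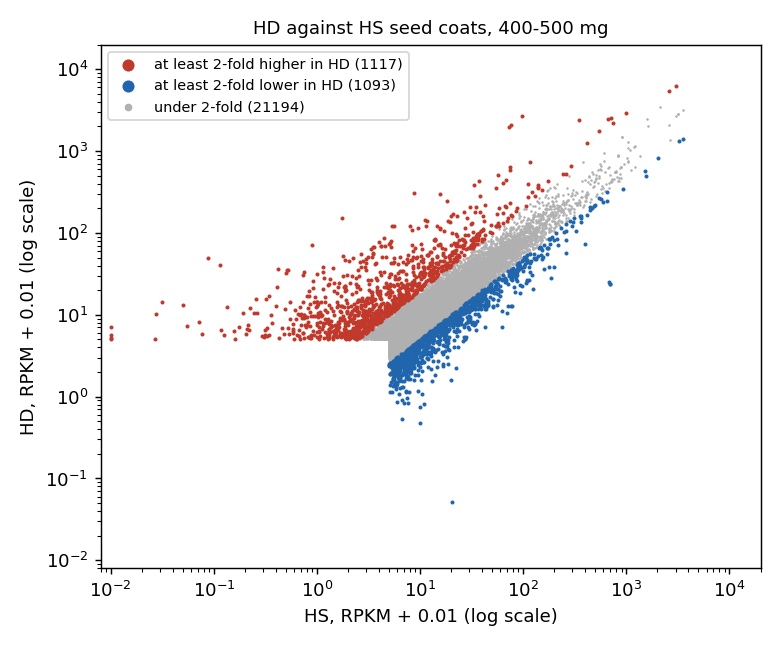
Each point is 1 gene model at 5 RPKM or more in either library, placed by its RPKM in HS (horizontal) and in HD (vertical), both as RPKM plus 0.01 on log scales. The 1117 models at least 2-fold higher in HD (red) reach down to HS levels near 0, while the 1093 lower ones (blue) mostly stay close to the 2-fold line, with only 10 beyond 10-fold.

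The values came from about 58500000 alignments in the HD library and 77100000 in the HS library, as recovered from the steps of the RPKM values, and a read with several matching models is counted in each. A model of median length (1171 bases) at 5 RPKM then rests on 343 alignments in HD and 451 in HS. The 100 most abundant models took 17.6% of the RPKM sum in HD and 15.9% in HS. The members nearest the 2-fold limit show how fine the line is. Glyma10g14110.1 (215 RPKM in HD, 107 RPKM in HS) fell just inside on the higher side and Glyma01g43050.1 (10.6 RPKM in HD, 5.30 RPKM in HS), a beta-1,3-glucosyltransferase, just outside. On the lower side Glyma02g11100.1 (5.16 RPKM in HD, 10.3 RPKM in HS) was just inside and Glyma04g02980.1 (3.78 RPKM in HD, 7.54 RPKM in HS) just outside.

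The other isoline pairs give the only picture of how far apart 2 libraries of this series lie. The central 95% of log2 ratios in HD over HS at 400–500 mg ran from -1.16 to 1.43. In the same lines it ran from -0.32 to 0.30 at 50–100 mg and from -2.02 to 1.46 at 100–200 mg, where 5.79% of models were higher and 8.51% lower. In CD over CS at 400–500 mg it ran from -0.78 to 0.65, with 1.12% of models higher and 1.96% lower. The Harosoy pair at 400–500 mg was thus wider than either the youngest Harosoy pair or the Clark pair of its own stage, and narrower than the Harosoy pair at 100–200 mg.

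The Clark libraries of the same stage, which took no part in choosing the models, were set beside the Harosoy pair. The models were chosen for HD and HS lying apart, so values outside both Clark lines are favoured by that choice. The shares over all models are given for scale and are no test. The 1117 higher models had median levels of 14.5 RPKM in HD and 3.94 RPKM in HS, beside 7.38 RPKM in CD and 10.03 RPKM in CS. In 862 of them (77.2%) HS lay below both Clark libraries, against 45.7% of all 23404 models, and in 840 (75.2%) HD lay above both, against 37.1% of all models. Both held at once in 590, against 6.64% of all models. The 1093 lower models had medians of 5.60 RPKM in HD and 15.1 RPKM in HS, beside 14.8 RPKM in CD and 12.5 RPKM in CS. HD lay below both Clark libraries in 935 of these (85.5%, against 51.6% of all models) and HS above both in 545 (49.9%, against 38.8%). The lower models were therefore mostly ones in which HD was the lowest of the 4 lines, and in 52.8% of the higher models HD and HS stood to either side of the Clark lines.

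Seed coats change greatly between 50–100 and 400–500 mg, and the Clark standard series was used to ask where the Harosoy differences fall along that change. Early genes were defined as those with at least 4-fold more RPKM at 50–100 mg than at 400–500 mg in CS, and late genes as the reverse, with no Harosoy value used. Of the 1663 late genes, 1341 reached 5 RPKM in the Harosoy pair. Among these, 499 (37.2%) were at least 2-fold higher in HD and 156 (11.6%) lower, with a median log2 ratio of 0.47. Late genes made up 44.7% of all models higher in HD and 14.3% of all models lower, but only 5.73% of all models compared. Their share was thus raised in both directions, and more so among the higher models. Of the 1966 early genes, 377 still reached 5 RPKM, and 113 of them (30%) were lower in HD while 18 (4.77%) were higher, with a median log2 ratio of -0.60. The 21686 models in neither class had 600 higher and 824 lower. Late genes thus leaned higher and early genes lower in HD than in HS.

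**Figure D2:**
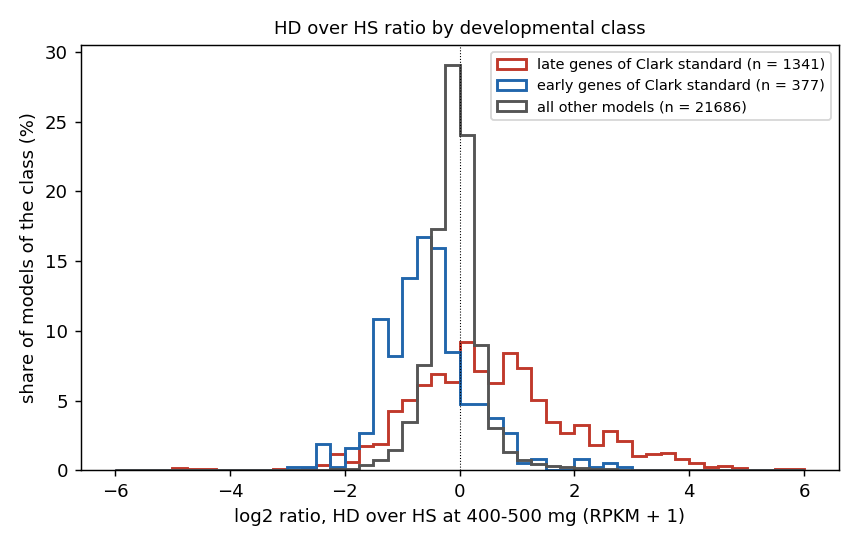
Distribution of the log2 ratio of HD over HS at 400–500 mg (RPKM plus 1) as the share of each class, for 1341 late genes, 377 early genes and the 21686 other models. The late genes extend far to the right of 0, with 37.2% at least 2-fold higher in HD, and the early genes lie mostly to its left, with 30% at least 2-fold lower.

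The classes stood the other way round in these lines at 100–200 mg. The late genes had a median of 18.7 RPKM in HD and 12.4 RPKM in HS at 400–500 mg, but 3.19 RPKM in HD and 9.07 RPKM in HS at 100–200 mg. The early genes had a median of 6.75 RPKM in HD and 9.60 RPKM in HS at 400–500 mg, but 57.4 RPKM in HD and 32.99 RPKM in HS at 100–200 mg. At 100–200 mg 590 of the 1341 late genes (44%) were at least 2-fold lower and 15 (1.12%) higher in HD, against 6.96% lower and 2.03% higher of all 23404 models, and 152 of the 377 early genes (40.3%) were higher and 4 lower. Of the 499 late genes higher in HD at 400–500 mg, 128 (25.7%) had been lower and 2 higher at 100–200 mg, and 286 were under 5 RPKM there in both lines. Of the 156 late genes lower in HD at 400–500 mg, 134 (85.9%) had been lower at 100–200 mg as well. Of the 113 early genes lower in HD at 400–500 mg, 55 (48.7%) had been higher and 2 lower at 100–200 mg. The libraries of 100–200 mg were sequenced with 75 bp reads on an earlier platform and those of 400–500 mg with 100 bp reads, so stage and platform cannot be told apart between the stages, whereas HD and HS were alike in read length within each stage.

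**Figure D3:**
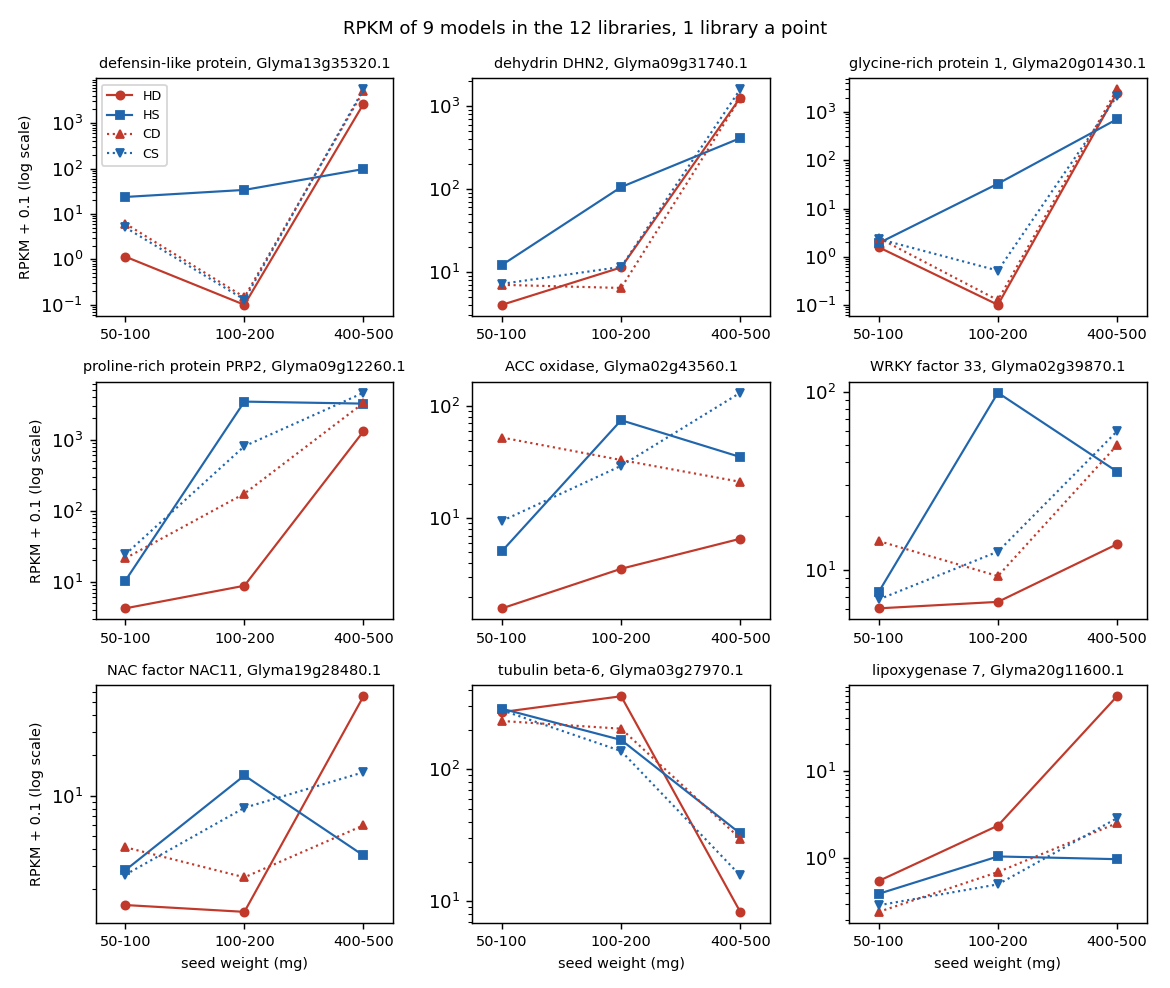
RPKM plus 0.1 (log scale) of 9 models against seed weight, 1 library a point, for HD, HS, CD and CS. The defensin-like protein, dehydrin DHN2 and glycine-rich protein 1 were lower in HD than in HS at 100–200 mg and higher at 400–500 mg; PRP2, ACC oxidase and WRKY factor 33 were lower in HD at both stages; tubulin beta-6 changed from higher to lower; and the defensin-like protein reached 2652 RPKM in HD, against 97.54 RPKM in HS, at 400–500 mg.

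Annotations were available for 1100 of the 23404 models, all of them picked by the study on these libraries, and 329 of the annotated models (29.9%) were higher and 361 (32.8%) lower in HD. The counts of gene families below must be read against those shares and not against 4.77% and 4.67%, and since the study chose the models for their differences they are not independent evidence of a direction. Members that the study did not list for this pair are given where they bear on a count, but they are no independent check either. Of the 587 models listed for this pair, 269 were higher and 318 lower in HD. Every listed model thus passed 2-fold, so a family made up mostly of listed models is called mostly by that choice. Family members without an annotation were not looked for, and counts of copies cover annotated models only. Members off the list were left off on these same 2 libraries, and so lean towards under 2-fold.

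**Figure D4:**
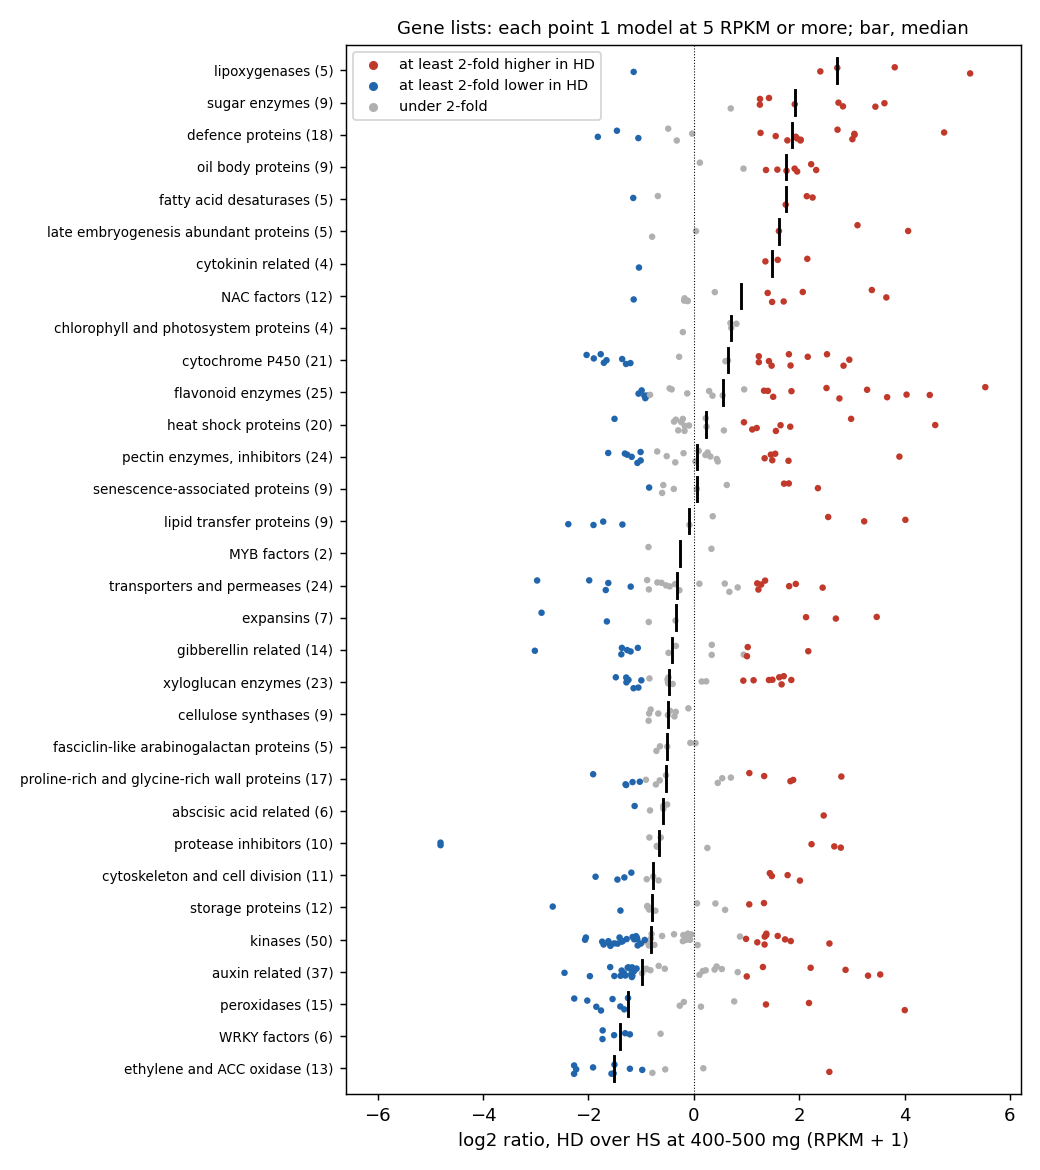
The log2 ratio of HD over HS at 400–500 mg (RPKM plus 1) for every model at 5 RPKM or more in 32 gene lists, ordered by the list median (black bar), with the number of models in brackets. Lipoxygenases (median 2.72), sugar enzymes (1.92) and defence proteins (1.86) stand at the top, and WRKY factors (-1.41) and ethylene and ACC oxidase (-1.50) at the bottom. The study's list for this pair, on which every model passed 2-fold, held all 5 lipoxygenases, 7 of 9 sugar enzymes and 15 of 18 defence models. It held 1 of 6 WRKY models and 8 of 13 of the ethylene list. Large medians are favoured by that choice.

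Among the structural wall proteins the abundant glycine-rich proteins were higher in HD and the abundant proline-rich proteins lower. Glyma07g28610.1, a glycine-rich protein and the most abundant transcript of the HD coat outside the left-out block, had 6262 RPKM in HD, against 3014 RPKM in HS, beside 7743 RPKM in CD and 7605 RPKM in CS. Glyma20g01430.1 (glycine-rich protein 1) had 2559.6 RPKM in HD and 717 RPKM in HS, a 3.57-fold difference (3.52 to 3.62). Glyma14g05760.1, of the same kind, had 2473 RPKM in HD and 668 RPKM in HS (3.70-fold, 3.65 to 3.76). In these 3 models HS was the lowest of the 4 lines. A further abundant member, Glyma02g42630.1, had 3467 RPKM in HD and 2127 RPKM in HS and stayed under 2-fold.

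PRP2, a proline-rich protein of the maturing soybean coat, was lower. Glyma09g12260.1 had 1313 RPKM in HD and 3221 RPKM in HS, beside 3292 RPKM in CD and 4584 RPKM in CS, and was 2.45-fold lower (2.44 to 2.47). Its neighbour Glyma09g12250.1 had 827 RPKM in HD and 2014 RPKM in HS, and the proline-rich Glyma15g23830.1 had 141 RPKM in HD and 287 RPKM in HS. HD was the lowest of the 4 lines for each of these. PRP1 (Glyma09g12200.1), the family member of young coats, had 43.1 RPKM in HD and 29.3 RPKM in HS, under 2-fold. The hydroxyproline-rich Glyma11g21620.1, an early gene, had 12.7 RPKM in HD and 50.5 RPKM in HS, beside 118.7 RPKM in CD and 146 RPKM in CS. Over the whole list of proline-rich and glycine-rich proteins 17 of 29 models reached 5 RPKM, 5 of them higher and 5 lower, with a median log2 ratio of -0.53. All 5 higher models were glycine-rich, and 1 of the 5 lower ones was (Glyma13g31840.1, 2.73 RPKM in HD and 7.35 RPKM in HS).

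The enzymes that build and loosen the wall were split. None of 9 cellulose synthase models and none of 5 fasciclin-like arabinogalactan proteins passed 2-fold, with medians of -0.49 and -0.50. No model of these families was on the study's list for this pair, so a lack of calls is favoured by that choice. Of 23 xyloglucan enzymes, which cut and rejoin the tethers between cellulose fibrils, 8 were higher and 7 lower. A xyloglucan endotransglucosylase (Glyma19g28640.1) had 18.7 RPKM in HD and 5.03 RPKM in HS, and a xyloglucosyl transferase (Glyma18g00630.1) had 5.43 RPKM in HD and 16.9 RPKM in HS. Expansins, proteins that loosen walls without cutting them, had 3 higher and 2 lower of 7. Expansin-A1 (Glyma02g12140.1) had 29.7 RPKM in HD and 1.77 RPKM in HS, and expansin-A10 (Glyma01g06030.1) had 9.88 RPKM in HD and 0.679 RPKM in HS. In the other direction expansin-B4 (Glyma10g24120.1) had 0.467 RPKM in HD and 9.86 RPKM in HS, a 21.1-fold difference (13.7 to 34.3) resting on 21 alignments in HD.

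Pectin enzymes and their inhibitors had 6 higher and 7 lower of 24, with a median of 0.06. A polygalacturonase (Glyma10g17550.1), of the enzymes that cut pectin chains, was measured at 14.3 RPKM in HD but at 0.0212 RPKM in HS, where it rested on 2 alignments, and was at 0 in CD and 0.0212 RPKM in CS. HD was thus the only one of the 4 lines with this transcript above 1 RPKM at 400–500 mg. The ratio was 672, with a counting interval of 185 to 5531. Pectin acetylesterases, which take acetyl groups off pectin, divided by stage. The 4 higher ones were late genes or of neither class, led by Glyma19g41240.1 with 78.2 RPKM in HD and 27.2 RPKM in HS. The 4 lower ones were early genes, led by Glyma16g17150.1 with 82.0 RPKM in HD and 198 RPKM in HS. Among beta-xylosidases, which trim xylan, both models annotated as beta-D-xylosidase 2 were lower: Glyma03g37710.1 had 12.9 RPKM in HD and 78.3 RPKM in HS, and Glyma19g40300.1 had 1.82 RPKM in HD and 14.03 RPKM in HS.

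Class III peroxidases can cross-link wall proteins and phenolics, and peroxidase 42 held some of the largest differences in RPKM. Of 15 models of the peroxidase list, which also takes in glutathione peroxidases, 8 were lower and 3 higher, with a median of -1.25. All 11 were on the study's list for this pair, and the 4 models off it had none higher or lower and a median of -0.03. Peroxidase 42 was lower in both abundant copies: Glyma17g01720.1 had 1409 RPKM in HD and 3514 RPKM in HS, and Glyma07g39020.1 had 572 RPKM in HD and 1505 RPKM in HS. Peroxidase 57 (Glyma19g16960.1) had 4.01 RPKM in HD and 23.1 RPKM in HS. The 3 higher models were a glutathione peroxidase (Glyma11g02630.1, 92.4 RPKM in HD and 35.1 RPKM in HS) and both copies of peroxidase 21, with 37.8 RPKM in HD and 1.42 RPKM in HS for Glyma13g20170.1 and 34.6 RPKM in HD and 6.81 RPKM in HS for Glyma10g05800.1.

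Proteins of desiccation and maturation were mostly higher. Dehydrin DHN2 (Glyma09g31740.1), a hydrophilic protein made as seed tissue dries, had 1262 RPKM in HD and 411 RPKM in HS, beside 1251 RPKM in CD and 1598 RPKM in CS. LEA14 (Glyma16g03470.1) had 645 RPKM in HD and 73.9 RPKM in HS, an 8.72-fold difference (8.45 to 9.01), beside 390.5 RPKM in CD and 463 RPKM in CS. HD was close to the Clark lines for the dehydrin and above both of them for LEA14, and HS was the low library for each. A further LEA-domain protein (Glyma06g43640.1) had 46.7 RPKM in HD and 1.84 RPKM in HS, but 1.75 RPKM in CD and 5.50 RPKM in CS. Of 5 late embryogenesis abundant proteins 3 were higher and none lower, and 2 of those 3 were not among the models listed for this pair.

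Oil body proteins coat and remodel the droplets in which seeds keep oil. Of 9 models 7 were higher and none lower, with a median of 1.76. The study's list for this pair held all 7, and neither of the 2 models off it passed 2-fold (median 0.53). All but 1 of the 7 were caleosins, calcium-binding proteins of the oil body surface. Glyma10g33350.1 had 219 RPKM in HD and 43.0 RPKM in HS, Glyma19g43680.1 had 91.1 RPKM in HD and 22.6 RPKM in HS, and Glyma09g25350.1 had 38.5 RPKM in HD and 9.49 RPKM in HS. Storage proteins did not follow them: of 12 models 2 were higher and 2 lower, with a median of -0.79. The 2S albumin Glyma13g36400.1 had 28.3 RPKM in HD and 186 RPKM in HS, beside 55.9 RPKM in CD and 208 RPKM in CS. Glyma12g34160.1, also a 2S albumin, had 29.9 RPKM in HD and 80.1 RPKM in HS, beside 30.7 RPKM in CD and 78.9 RPKM in CS. Both defective lines were thus below their standard lines in the 2S albumins. A beta-conglycinin alpha chain (Glyma10g39150.1) had 469 RPKM in HD and 843 RPKM in HS, under 2-fold, and a beta subunit (Glyma02g16440.1) had 123 RPKM in HD and 58.7 RPKM in HS.

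Storage and oil body proteins also mark cotyledon and embryo, from which the coats were dissected. The summed level of the 16 storage proteins listed was 1048 RPKM in HD and 1702 RPKM in HS, and 724 RPKM in CD and 1366 RPKM in CS. That of the 9 oil body proteins was 942 RPKM in HD and 331 RPKM in HS, and 429 RPKM in CD and 625 RPKM in CS. Over the 12 libraries the sums ranged from 201 to 1702 RPKM for storage proteins and from 36.4 to 942 RPKM for oil body proteins, so neither list was at 0 in any library. The 2 lists moved in opposite directions between HD and HS, and the part of embryo tissue in the results was not tested. The coat markers were present in both libraries at the PRP1 and PRP2 levels given above.

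Enzymes that mobilise sugars held some of the largest ratios of the pair. Alkaline alpha-galactosidase (Glyma03g29440.1), which takes galactose off raffinose sugars, had 151 RPKM in HD and 1.72 RPKM in HS, beside 15.7 RPKM in CD and 26.6 RPKM in CS, an 87.6-fold difference (79.1 to 97.2). Acid beta-fructofuranosidase (Glyma12g00780.1), an invertase that splits sucrose, had 40.3 RPKM in HD and 0.104 RPKM in HS (386-fold, 241 to 663), and stood at 2.19 RPKM in CD and 1.49 RPKM in CS. HD was the highest line for both enzymes and HS the lowest. The beta-amylases, which release maltose from starch, were higher as a group of 4. Glyma09g29840.1 had 47.7 RPKM in HD and 2.97 RPKM in HS, and Glyma16g34360.1 had 42.7 RPKM in HD and 3.01 RPKM in HS. The list of sugar enzymes had 8 of 9 models higher and none lower. Besides the 4 beta-amylases these were 3 alpha-amylase/subtilisin inhibitors and 1 invertase inhibitor, and the galactosidase and the invertase above were not on the list. Of the 9 models, 7 were on the study's list for this pair, and 1 of the 2 others was higher.

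Lipoxygenases oxidise polyunsaturated fatty acids, and 4 of 5 were higher and 1 lower, all 5 on the study's list for this pair. A pair of neighbours annotated as chloroplastic lipoxygenase 7 were far above every other line in HD: Glyma20g11600.1 had 70.3 RPKM in HD and 0.881 RPKM in HS, beside 2.42 RPKM in CD and 2.77 RPKM in CS, and Glyma20g11610.1 had 25.9 RPKM in HD and 0.912 RPKM in HS. Glyma20g11680.1, from the same stretch of chromosome 20, had 206 RPKM in HD and 30.3 RPKM in HS, and seed lipoxygenase-3 (Glyma15g03030.1) had 183 RPKM in HD and 33.8 RPKM in HS. The omega-3 fatty acid desaturases, which supply the trienoic fatty acids that lipoxygenases use, were higher in all 3 annotated copies. Each of the 3 was on the study's list for this pair. Glyma18g06950.1 was the most abundant of them, with 100.2 RPKM in HD and 20.2 RPKM in HS. The desaturase Glyma08g41120.1 (fatty acid desaturase 2) was lower, with 13.9 RPKM in HD and 32.0 RPKM in HS. Lipid transfer proteins, which carry lipids across the wall space, split by stage: 3 were higher, 2 of them late genes, and 4 were lower, all of them early genes. Glyma03g04910.1 had 33.7 RPKM in HD and 1.15 RPKM in HS, and Glyma02g45050.1 had 12.95 RPKM in HD and 71.7 RPKM in HS.

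Both Harosoy lines are yellow, yet enzymes that decorate flavonoids and anthocyanins differed widely. Of 25 models in the list 11 were higher and 6 lower, with a median of 0.55, and 1 of the 11 was a flavin oxidoreductase and no flavonoid enzyme. An anthocyanin 5-aromatic acyltransferase (Glyma12g32650.1) had 48.9 RPKM in HD and 0.0779 RPKM in HS, where it rested on 8 alignments, beside 6.29 RPKM in CD and 25.03 RPKM in CS. Neighbouring anthocyanidin glucosyltransferases of chromosome 16 were higher together, at 32.2 RPKM in HD and 0.488 RPKM in HS for Glyma16g29340.1, 22.0 RPKM in HD and 0.400 RPKM in HS for Glyma16g29350.1, and 15.7 RPKM in HD and 0.309 RPKM in HS for Glyma16g29370.1. The Clark lines were both under 3 RPKM for these glucosyltransferases. Chalcone synthase, the first enzyme of the flavonoid pathway, went the other way: Glyma08g11610.1 had 6.18 RPKM in HD and 13.2 RPKM in HS, Glyma08g11620.1 had 4.84 RPKM in HD and 10.04 RPKM in HS, and Glyma08g11630.1 had 5.18 RPKM in HD and 10.8 RPKM in HS. These copies lie in a cluster of near-identical genes whose reads align to several of them, so they are not independent. No flavonoid model outside the study's list for this pair was higher, and 5 of 13 were lower.

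Defence proteins were higher in 12 of 18 models and lower in 3, with a median of 1.86. The defensin-like protein Glyma13g35320.1, a small secreted peptide of the kind that inhibits microbes, had 2652 RPKM in HD and 97.54 RPKM in HS, a 27.2-fold difference (26.4 to 28.0), beside 5086 RPKM in CD and 5589 RPKM in CS. At 100–200 mg it had been at 0 RPKM in HD and at 33.8 RPKM in HS. An endochitinase (Glyma02g04820.1), which degrades fungal wall chitin, had 2917 RPKM in HD and 992 RPKM in HS, beside 1901 RPKM in CD and 2214 RPKM in CS. Thaumatin-like proteins of a chromosome 10 cluster stood at 24.5 RPKM in HD and 2.08 RPKM in HS for Glyma10g06940.1 and at 22.5 RPKM in HD and 1.84 RPKM in HS for Glyma10g07050.1, which shares its profile with Glyma10g06880.1 so closely that reads may be shared. In each of these higher models HS was below both Clark lines. The 3 lower ones were the thaumatin-like Glyma02g05320.1 and Glyma14g40350.1 and a pathogenesis-related activator, Glyma14g38610.1. They had 1.07, 4.36 and 11.7 RPKM in HD, against 6.30, 10.1 and 34.0 RPKM in HS. HS was above both Clark lines in the first (3.16 RPKM in CD, 0.596 RPKM in CS). It lay between them in the second and below both in the third. All 15 defence models that passed 2-fold were on the study's list for this pair, and none of the 3 others passed.

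The largest loss in RPKM among the inhibitors was a Bowman-Birk protease inhibitor, a seed protein that blocks trypsin-like enzymes. Glyma14g26400.1 had 24.0 RPKM in HD and 698 RPKM in HS, beside 15.6 RPKM in CD and 5.10 RPKM in CS, a 29.1-fold difference (26.5 to 32.0). Glyma09g28720.1 had 24.1 RPKM in HD and 699.9 RPKM in HS, and the adjacent unannotated Glyma09g28710.1 had 25.4 RPKM in HD and 686 RPKM in HS. HS was the library that stood apart here, and the annotated copies differed by at most 0.02 on the log2 scale in all 12 libraries, so they cannot be counted as separate genes. Over the protease inhibitor list 3 of 10 models were higher and 2 lower, with a median of -0.66. The 3 higher ones were Kunitz-type inhibitors: Glyma16g33790.1 had 51.7 RPKM in HD and 10.2 RPKM in HS, and Glyma08g45590.1 had 12.8 RPKM in HD and 1.002 RPKM in HS.

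Of the hormone lists that of ethylene had the lowest median. ACC oxidase makes ethylene from its precursor ACC, and all 4 models of it at 5 RPKM or more were lower in HD. A read that aligned to several of these models was counted in each, so they need not be 4 separate measurements. Glyma02g43560.1 had 6.46 RPKM in HD and 35.0 RPKM in HS, a 5.42-fold difference (4.92 to 5.97), beside 21.0 RPKM in CD and 131 RPKM in CS. Glyma14g05390.1 had 3.01 RPKM in HD and 18.3 RPKM in HS, Glyma08g27530.1 had 2.29 RPKM in HD and 14.5 RPKM in HS, and Glyma06g24130.1 had 2.04 RPKM in HD and 10.4 RPKM in HS. Both defective lines were thus below their standard line. ACC synthase, which makes the precursor, was lower too, with 12.3 RPKM in HD and 38.2 RPKM in HS for Glyma08g02130.1 and 7.53 RPKM in HD and 23.2 RPKM in HS for Glyma05g37410.1, models singled out after their values were seen. Over the list of 13, 9 were lower and 1 higher, with a median of -1.50. The higher one, an EIN3 family factor (Glyma05g31410.1), had 20.6 RPKM in HD and 2.63 RPKM in HS. Of the 5 models not listed for this pair 2 were lower and none higher.

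Of 37 auxin related models 18 were lower and 6 higher, with a median of -0.98, but the lower ones were all on the study's list and of the 15 models off it none was lower and 2 were higher. The auxin-induced protein Glyma07g03840.1 had 7.02 RPKM in HD and 42.9 RPKM in HS, and Glyma13g19520.1 had 50.8 RPKM in HD and 154 RPKM in HS. An auxin efflux carrier (Glyma16g21930.1), which moves auxin out of cells, had 3.46 RPKM in HD and 16.5 RPKM in HS. Against them, both Axi 1-like proteins were higher, at 120.6 RPKM in HD and 11.3 RPKM in HS for Glyma01g27000.1 and 107 RPKM in HD and 8.33 RPKM in HS for Glyma03g14950.1. Gibberellin related models had 3 higher and 6 lower of 14, but of the 7 not listed for this pair 2 were higher and none lower. The gibberellin-regulated protein Glyma20g26730.1 had 1.57 RPKM in HD and 19.8 RPKM in HS, while Glyma06g04740.1, of the same family, had 73.7 RPKM in HD and 15.6 RPKM in HS.

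For abscisic acid, the hormone of seed maturation, 1 of 6 models was higher and 1 lower. The higher one, an ABA 8'-hydroxylase (Glyma09g41960.1) of the enzymes that break the hormone down, had 10.2 RPKM in HD and 1.03 RPKM in HS. For cytokinin, where all 4 models were on the study's list for this pair, 3 were higher and 1 lower. Among them cytokinin dehydrogenase 5 (Glyma06g03180.1), which degrades cytokinin, had 16.2 RPKM in HD and 5.71 RPKM in HS, beside 3.75 RPKM in CD and 2.32 RPKM in CS.

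Among the transcription factors, those of the NAC family, several of which act in secondary wall formation and in ageing tissue in other plants, had 6 higher and 1 lower of 12, with a median of 0.90. The 8 not listed for this pair had 2 higher and 1 lower, with a median of -0.12. NAC11 (Glyma19g28480.1) had 55.3 RPKM in HD and 3.47 RPKM in HS, and NAC domain-containing protein 18 (Glyma16g04740.1) had 24.6 RPKM in HD and 1.46 RPKM in HS. NAC domain-containing protein 55 (Glyma13g35550.1) was the most abundant, with 138 RPKM in HD and 41.7 RPKM in HS. In all 3 HD was above both Clark lines at this stage and had been below HS at 100–200 mg, with 1.25 RPKM in HD and 14.05 RPKM in HS for NAC11.

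WRKY factors, regulators of defence and stress responses, had 5 lower and none higher of 6, with a median of -1.41, and 4 of the 5 were not on the study's list for this pair. WRKY transcription factor 33 (Glyma02g39870.1) had 13.8 RPKM in HD and 35.4 RPKM in HS, beside 49.8 RPKM in CD and 59.7 RPKM in CS. The WRKY 41 models Glyma08g02580.1 and Glyma05g36970.1 had 4.73 and 4.64 RPKM in HD, against 18.0 and 17.7 RPKM in HS. For these 3 factors HD was the lowest of the 4 lines. Mitogen-activated protein kinase 3, which acts upstream of such factors in Arabidopsis, was lower in both copies, at 24.6 RPKM in HD and 106 RPKM in HS for Glyma12g07770.1 and 26.6 RPKM in HD and 113 RPKM in HS for Glyma11g15700.1. The Clark lines were between 114.8 and 132 RPKM for it. Only 2 of 15 MYB models reached 5 RPKM, and neither passed 2-fold or was on the study's list for this pair.

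Kinases as a whole had 21 lower and 10 higher of 50, with a median of -0.81, and of the 23 not listed for this pair 3 were lower and 1 higher. The list takes in metabolic kinases as well: of the 10 higher, 4 were 2-phosphoglycerate kinase or phosphofructokinase models, such as Glyma11g20130.1 with 57.6 RPKM in HD and 16.6 RPKM in HS. The lower ones were mostly receptor-like kinases, such as Glyma16g27260.1 with 4.26 RPKM in HD and 16.5 RPKM in HS.

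Heat shock proteins, chaperones of damaged or folding proteins, had 19 of 20 models not listed for this pair. Of all 20, 8 were higher and 1 lower, and of the 19, 7 were higher and 1 lower. Heat shock protein 83 (Glyma09g24410.1) had 21.5 RPKM in HD and 1.84 RPKM in HS, and HSP90.1 (Glyma16g29750.1) had 14.4 RPKM in HD and 3.33 RPKM in HS. At 100–200 mg these had been at 2.54 RPKM in HD and 36.2 RPKM in HS, and at 3.88 RPKM in HD and 38.5 RPKM in HS. The 5 most abundant members, Hsp70 and HSP90-like models, stayed under 2-fold.

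Cytochrome P450 models, oxidases of many pathways, were divided, with 10 higher and 8 lower of 21. Of the higher ones 9 were late genes, 5 of them from 1 stretch of chromosome 3, and the steepest was Glyma19g32880.1 (cytochrome P450 93A1) with 11.4 RPKM in HD and 0.601 RPKM in HS. Of the lower ones Glyma20g02290.1 had 7.63 RPKM in HD and 34.3 RPKM in HS. In the cytoskeleton list 4 were higher and 4 lower of 11. All 4 lower ones were tubulins, the subunits of microtubules, such as tubulin beta-6 (Glyma03g27970.1) with 8.23 RPKM in HD and 32.6 RPKM in HS. The higher ones were actin-binding proteins and kinesins, such as the kinesin-like Glyma05g28240.1 with 27.6 RPKM in HD and 6.08 RPKM in HS. Of these tubulins 3 had been at least 2-fold higher in HD at 100–200 mg, where Glyma03g27970.1 had 357 RPKM in HD and 167 RPKM in HS, and Glyma17g37770.1 had 29.9 RPKM in HD and 21.2 RPKM in HS.

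Of 24 transporters and permeases 7 were higher and 5 lower. The amino acid permease Glyma04g38640.1, of the carriers that load amino acids for the embryo, had 7.09 RPKM in HD and 62.5 RPKM in HS, an 8.81-fold difference (8.20 to 9.47), beside 4.34 RPKM in CD and 40.1 RPKM in CS. Both defective lines lay far below their standard line. A calcium-transporting ATPase (Glyma01g40130.1) had 8.32 RPKM in HD and 35.8 RPKM in HS, and an MtN3 family protein (Glyma13g33950.1), a family that includes sugar exporters, had 9.95 RPKM in HD and 1.01 RPKM in HS.

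Senescence-associated proteins outside the left-out block had 3 higher and 1 lower of 9. Glyma05g09990.1 had 1775 RPKM in HD and 540.4 RPKM in HS, and 274 RPKM in CD and 122 RPKM in CS, so that the defective line was the higher in each background. None of the 4 chlorophyll and photosystem models passed 2-fold, and none was on the study's list for this pair.

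The strongest ratios among models without an annotation are given by identifier only. Glyma17g03040.1 had 307 RPKM in HD and 8.71 RPKM in HS, and Glyma14g06910.1 had 36.5 RPKM in HD and 0.413 RPKM in HS. Glyma04g40710.1 had 0.0411 RPKM in HD, from 1 alignment, and 20.3 RPKM in HS, beside 46.2 RPKM in CD and 37.8 RPKM in CS, and at 100–200 mg it had 0.0386 RPKM in HD and 72.7 RPKM in HS. It was close to 0 in HD at both stages and present in the other 3 lines.

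The study singled out 29 models by their ratio in both backgrounds at 100–200 mg, and their levels at 400–500 mg were asked for separately. Of the 13 that had been higher in the defective lines, 4 reached 5 RPKM at 400–500 mg, none was higher in HD and 1 was lower. Of the 16 that had been lower, 15 reached 5 RPKM, 6 were lower in HD and 2 were higher, with a median log2 ratio of -0.91 over the 15. The 1 lower model of the first set was Glyma08g08200.1, annotated as Ruptured Pollen Grain 1, with 0.525 RPKM in HD and 6.63 RPKM in HS. The 6 of the second were the 3 proline-rich models, both 2S albumins and the amino acid permease. The 2 higher ones were the glycine-rich Glyma07g28610.1 and heat shock protein 83. The auxin down-regulated protein Glyma10g35870.1 had 71.0 RPKM in HD and 135 RPKM in HS, under 2-fold. The other 9 of the 13 were under 5 RPKM in both lines.

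Of all 23404 models 0.624% were higher and 1.23% lower in CD than in CS at 400–500 mg, and the models called in HD are read against those shares. In both pairs 9 models were at least 2-fold higher in the defective line, which is 0.806% of those higher in HD and 3.36% of those higher in CD. In both pairs 27 were lower, 2.47% of those lower in HD and 5.74% of those lower in CD. More models were called in opposite directions: 113 were higher in HD and lower in CD (10.1% of the Harosoy and 24% of the Clark calls), and 56 were lower in HD and higher in CD (5.12% and 20.9%). The pairs share no library. Across 15904 loci at 5 RPKM in both pairs the log2 ratios had a Pearson r of -0.34, which is a description across genes that share libraries and read depth and are not independent. The r with the ratios of HD over HS at 100–200 mg was 0.12 over 15263 loci and with those at 50–100 mg -0.05 over 14411 loci.

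**Figure D5:**
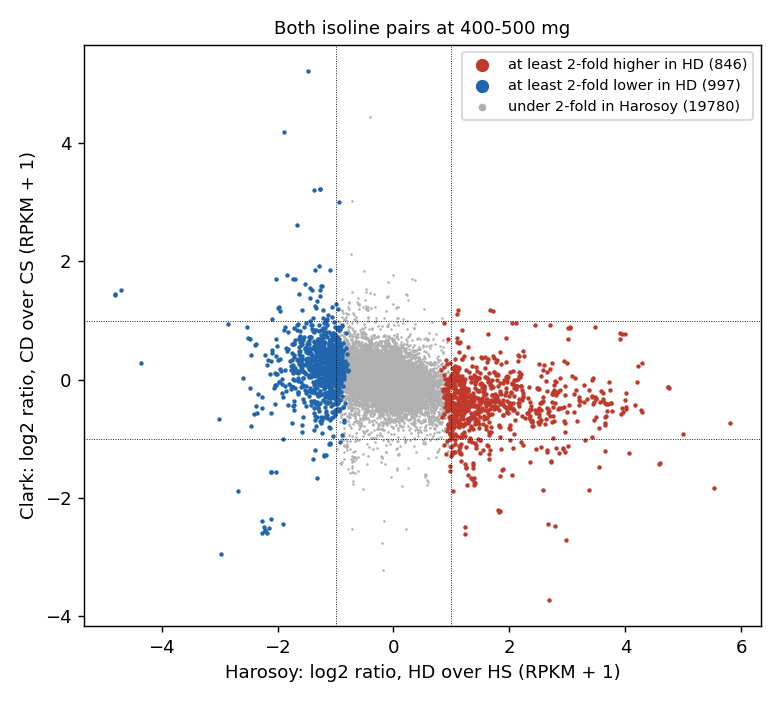
Each point is 1 of 21623 models at 5 RPKM or more in a library of both pairs, placed by its log2 ratio of HD over HS (horizontal) and of CD over CS (vertical) at 400–500 mg, with RPKM plus 1. The upper right and lower left corners, where both defective lines differ alike from their standard lines, hold few points, and the group near -2 on both axes contains the 4 ACC oxidases.

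The shared lower set held the 4 ACC oxidases, both 2S albumins and the amino acid permease, together with the lipid transfer proteins Glyma01g32750.1 (15.7 RPKM in HD and 41.6 RPKM in HS, 31.0 RPKM in CD and 71.9 RPKM in CS) and Glyma02g45070.1 (6.996 RPKM in HD and 28.9 RPKM in HS, 6.93 RPKM in CD and 14.8 RPKM in CS). The shared higher set held Glyma05g09990.1 and expansin-A10 (Glyma01g06030.1), and, singled out after their values were seen, asparagine synthetase 2 (Glyma14g37440.1), which makes the amide asparagine for nitrogen transport, with 7.07 RPKM in HD and 1.54 RPKM in HS, and 13.9 RPKM in CD and 5.60 RPKM in CS.

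The models called in opposite directions included several of the largest Harosoy differences. Higher in HD and lower in CD were the acyltransferase Glyma12g32650.1, both Axi 1-like proteins, NAC11 and NAC domain-containing protein 18, lipoxygenase 7 (Glyma20g11680.1) and the LEA-domain protein Glyma06g43640.1. Lower in HD and higher in CD were the Bowman-Birk inhibitors and, singled out after their values were seen, serine carboxypeptidases and subtilisin-like proteases, enzymes that cut proteins. Glyma07g31200.1, a serine carboxypeptidase-like protein, had 26.3 RPKM in HD and 108 RPKM in HS, and 55.6 RPKM in CD and 23.4 RPKM in CS. The subtilisin-like protease Glyma06g02500.1 had 66.3 RPKM in HD and 171 RPKM in HS, and 299 RPKM in CD and 81.7 RPKM in CS. In both of these HD was close to CS, and HS was above HD and CS. For the subtilisin-like protease CD was higher still.

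The differences were spread over the genome. By chromosome, taken from the model names, 3.41% to 7% of loci were higher in HD and 3.55% to 6.76% lower. In 17189 windows of 10 neighbouring loci the highest count was 6 in either direction. Windows with 6 higher loci lay on chromosome 16, at Glyma16g31310 to Glyma16g31760 and at Glyma16g29330 to Glyma16g29790. The latter holds the anthocyanidin glucosyltransferases and also HSP90.1 (Glyma16g29750.1). Windows with 6 lower loci lay on chromosome 6 (Glyma06g42140 to Glyma06g42840), chromosome 8 (Glyma08g11500 to Glyma08g11640) and chromosome 10 (Glyma10g18620 to Glyma10g20450). The stretch of chromosome 8 holds the chalcone synthases, but also a subtilisin-like protease (Glyma08g11500.1) and cytochrome P450 71D10 (Glyma08g11570.1), both lower in HD. Neighbours of 1 family can share reads, so such windows do not count independent loci.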

How the data were processed

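Total RNA of dissected seed coats was sequenced by the authors, with 1 library for each of 4 isolines at 3 seed weights, and reads of 100 bp at 400–500 mg. Per the labels and the study's methods, reads were aligned with Bowtie (version not given in the sources used here) to 78773 Glyma models, with up to 3 mismatches and 25 alignments, and the deposited values are RPKM, normalised by the authors to model length and mapped reads.

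Ratios of RPKM were computed for models with at least 5 RPKM in either library of a pair, and 2-fold was called. Log2 ratios used RPKM plus 1. Since values step by 1 read, model lengths and alignments were recovered for 71436 of 71441 expressed models, whole within 0.01. A read that aligned to several models was counted in each, so paralogs are not separate measurements. In a sample of models, the smallest step gave a whole length for 96.7%. The scripts were tested on simulated data. There is 1 library a side, so no test within the pair was made. Intervals are exact Clopper-Pearson intervals at 95%.

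Named models are the 29 of the study's selection, up to 4 loci at each end of each gene list, the 10 annotated loci at each end by ratio and by RPKM difference, the 2 unannotated models at each end, and those next to the threshold. Gene lists were searched in annotations of models that the study picked on these libraries. The members and lists were chosen with earlier results of these data known. Other minimum levels, folds, pseudocounts, scalings and 1 model per locus were tried. Figures were drawn in matplotlib 3.10.9, intervals come from scipy 1.17.1, and tables were handled with pandas 2.3.3 and numpy 2.4.6 (numba 0.67.0 for the search of lengths) under Python 3.11.15. The senescence-associated block on chromosome 13 is not analysed here.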

Additional observations from a re-analysis of the deposited data

Results flagged for a closer look

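The direction of the Harosoy difference was not that of the other background or of the preceding stage for 4 sets of models. At 400–500 mg 113 models were at least 2-fold higher in HD than in HS and at least 2-fold lower in CD than in CS, which is 10.1% of those higher in HD, where 1.23% of all 23404 models were lower in CD. The reverse held for 56, lower in HD and higher in CD, which is 5.12% of those lower in HD, where 0.624% of all models were higher in CD. Of the models higher in HD at 400–500 mg, 180 were lower in HD at 100–200 mg (16.1% of them, where 6.96% of all models were lower there). Late genes supplied 128 of the 180. Those 128 were 25.7% of the 499 late genes higher in HD, a smaller share than the 44% of all 1341 late genes lower at 100–200 mg. Under 5 RPKM at 100–200 mg were 286 of the 499 and 450 of the 1341. Of the models lower in HD at 400–500 mg, 80 were higher in HD at 100–200 mg (7.32%, where 2.03% of all models were higher there). Many more of these lower models, 464 (42.5%, where 6.96% of all models were lower), were lower in HD at 100–200 mg as well. Among the models higher in HD at 400–500 mg, 51 (4.57%) were higher at 100–200 mg too. Each set compares single libraries, and the difference between backgrounds or stages was not tested.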

How the results depend on the processing

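The alternatives could not turn the direction of a call. Adding RPKM to both libraries keeps their order, and the rescalings were small beside 2-fold. The counts depend on the limits. With at least 1 RPKM in place of 5, 2247 models were higher and 2384 lower in HD, 59 early genes were higher and 288 lower, and 36 models were higher in both backgrounds, 77 lower in both, 324 higher in HD and lower in CD, and 164 lower in HD and higher in CD. With at least 10 RPKM, 737 were higher and 723 lower, 7 early genes were higher and 69 lower, 5 models were higher in both backgrounds, and 61 and 28 were called in opposite directions. With no minimum, 6982 were higher and 8331 lower, 152 early genes were higher and 527 lower, and the counts over both backgrounds were 758 higher, 1377 lower, 1840 higher in HD and lower in CD, and 1309 the reverse.

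At 3-fold, 607 models were higher and 293 lower, early genes had 8 higher and 42 lower, late genes 310 higher and 65 lower, and both backgrounds 0 higher and 15 lower, with 21 and 15 in opposite directions. At 1.5-fold, 2009 were higher and 3212 lower, so that lower models outnumbered higher ones, early genes had 32 higher and 210 lower, late genes 273 lower, and both backgrounds 42 higher and 176 lower, with 406 and 351 in opposite directions. Early and late genes chosen on CD in place of CS gave 32 early genes higher and 72 lower, and 307 late genes higher and 70 lower. Adding 1 RPKM left 4 models higher in both backgrounds, 1 model per locus left 17 lower in both, and keeping the chromosome 13 block gave 45 higher in both. Median rescaling (a log2 shift of 0.08) gave 1272 higher and 937 lower, and a trimmed mean scaling 1295 higher and 924 lower.

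Of the 32 list medians, that of the photosystem proteins was 0.82 with 0.1 RPKM added and -0.34 with at least 1 RPKM, and 2 medians changed sign with the latter minimum and 1 with 1 model per locus. No named model of 204 changed sign, which an amount added to both libraries cannot bring about. The log2 ratio left its counting interval in 155 under median rescaling, in 170 with 5 RPKM added and in 3 with 0.1 RPKM added. No paired analysis was possible because each line had 1 library at this stage, and no library could be left out for the same reason. Depth limits ratios against values of few alignments, and intervals do not cover differences between plants, harvests or preparations.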

Other observations

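Some of the strongest contrasts between the backgrounds lay outside the gene families described above, and the models in this paragraph were chosen after their values were seen. Malate synthase (Glyma17g13730.1), an enzyme of the glyoxylate cycle that turns fat into sugar, had 12.95 RPKM in HD and 2.89 RPKM in HS, but 2.91 RPKM in CD and 11.05 RPKM in CS. Beta-D-xylosidase 1 (Glyma09g04340.1) had 103 RPKM in HD and 32.7 RPKM in HS, and 18.99 RPKM in CD and 42.6 RPKM in CS, opposite to the beta-xylosidases that were lower in HD. A cysteine proteinase inhibitor (Glyma15g12210.1) had 4.96 RPKM in HD and 15.6 RPKM in HS, but 60.3 RPKM in CD and 0.648 RPKM in CS, and cytochrome P450 71D10 (Glyma08g11570.1) had 1.85 RPKM in HD and 9.60 RPKM in HS, but 18.1 RPKM in CD and 0.0419 RPKM in CS. Early light-induced proteins, which protect chloroplasts under strong light, were higher in the defective line of each background, with 26.5 RPKM in HD and 11.9 RPKM in HS, and 32.7 RPKM in CD and 14.5 RPKM in CS, for Glyma20g28890.1. A bark storage protein (Glyma07g09220.1) was lower in both, with 0.961 RPKM in HD and 7.44 RPKM in HS, and 2.93 RPKM in CD and 10.6 RPKM in CS.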
